A study of Mus musculus with 12 samples.

Results

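Type 1 conventional dendritic cells (cDC1) from the inguinal lymph nodes of mice treated with an agonist of CD40 were compared between mice that carried a KPC tumor under the skin and mice without one. KPC names tumor cells of a genetic mouse model of pancreatic cancer. RNA-seq libraries were chosen by the part of their title that follows a date-like prefix. Those starting with Tumor-CD40 (tumor, agonist given) and those starting with NoTumor-CD40 (no tumor, agonist given) make up 6 of the 12 libraries of the study, 3 in each group. All 6 libraries carry the agonist, so the comparison shows what differs with the tumor under treatment, not what the agonist does. Libraries 1, 2 and 3 of each group have the prefixes 091218, 091318 and 091418, and libraries of the same prefix were taken as pairs. The other 6 libraries, from mice given no agonist with a tumor (Tumor-NoCD40) or without one (NoTumor-NoCD40), were used for the estimate of the spread and for setting the same tumor comparison beside this one. The labels give no strain, age, tumor clone, agonist dose, interval or sort gate, and do not say whether libraries come from separate or pooled animals, so p-values measure the spread between these samples, which may be technical.

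cDC1 take up dying cells and present their antigens to CD8 T cells, and helper T cells activate them by binding CD40. On activation dendritic cells raise the chemokine receptor CCR7, costimulatory ligands and antigen presentation genes. CD40 is also a receptor of B cells, and both B cells and macrophages of a lymph node lie close to its dendritic cells. B cells are recognised by their antigen receptor (CD79A and CD79B with surface immunoglobulin), its coreceptors and the transcription factors PAX5, EBF1 and OBF-1, while plasma cells secrete immunoglobulin with the help of the J chain and MZB1.

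Each of the 12 libraries held 22855143 to 27163393 expected counts, and 18095 genes had enough counts to be tested. Levels are given in CPM, expected counts scaled to a common library total with TMM factors. Fold changes are log2 values of Tumor-CD40 over NoTumor-CD40 with a standard error (SE), from edgeR's quasi-likelihood test with the prefix as a block, and a gene is called where its Benjamini-Hochberg adjusted p is under 0.05. Libraries correlated (log2 CPM, across genes) at 0.922 to 0.927 within Tumor-CD40, at 0.918 to 0.926 within NoTumor-CD40 and at 0.907 to 0.931 between the groups. The cDC1 label was checked against lineage genes. The transcription factor gene Irf8 stood at 1374, 1572 and 1294 CPM in Tumor-CD40, against 1763, 2016 and 1506 CPM in NoTumor-CD40. Batf3, the factor that cDC1 depend on, stood at 131, 133 and 85.2 CPM, against 159, 121 and 160.5 CPM. Xcr1, the chemokine receptor particular to cDC1 among dendritic cells, stood at 249, 303 and 199 CPM in Tumor-CD40, against 249, 533 and 49.5 CPM in NoTumor-CD40. All 6 libraries thus held cDC1 transcripts, and NoTumor-CD40 library 3 had the least Xcr1. Of 30 listed cDC1 identity genes 0 were called, 18 were above 0 and their median was 0.22, a sign that turned to -0.13 without the replicate block.

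With a tumor, cDC1 libraries from agonist-treated mice held more B cell, plasma cell and immunoglobulin transcripts and more transcripts of a few macrophage and monocyte genes. Of 18095 genes tested, 83 were called (0.459%), 81 of them higher (0.448%) and 2 lower (0.0111%) in Tumor-CD40. Immunoglobulin genes gave 35 of the 81, other listed markers of B or plasma cells 16, and listed markers of monocytes or macrophages 5. The remaining 25 are described by name after these. Over all genes the median log2 fold change was 0 and 9042 (50%) were above 0. Of the 112 immunoglobulin genes tested 110 were above 0 at a median of 3.37, and of the 22 other listed B or plasma cell markers 21 at a median of 2.76. A gene could enter the test through its counts in 1 group alone. Immunoglobulin segments near 0 outside Tumor-CD40 could thus enter only by being high there. Their share above 0 follows in part from this filter and is not separate support. Among the 83, 82 had the same sign in all 3 pairs and 80 did not overlap between the groups. Over all genes, 6.68% did not overlap with Tumor-CD40 higher and 6.2% with Tumor-CD40 lower. The 83 were chosen by p from these same libraries. Their signs and their separation follow in part from that choice and are not separate support. Without the replicate block 36 genes were called (35 higher, 1 lower), 35 of them among the 83. On 1 simulated data set the blocked fit made more false calls than its nominal rate, and 1 such set does not measure the rate in these data. The count also hung on single libraries. It was 41, 8 and 1 without NoTumor-CD40 library 1, 2 and 3, and 76, 442 and 51 without Tumor-CD40 library 1, 2 and 3. Of the 442 called without Tumor-CD40 library 2, 233 were lower, and DESeq2 called 94 lower genes among 334.

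**Figure D1:**
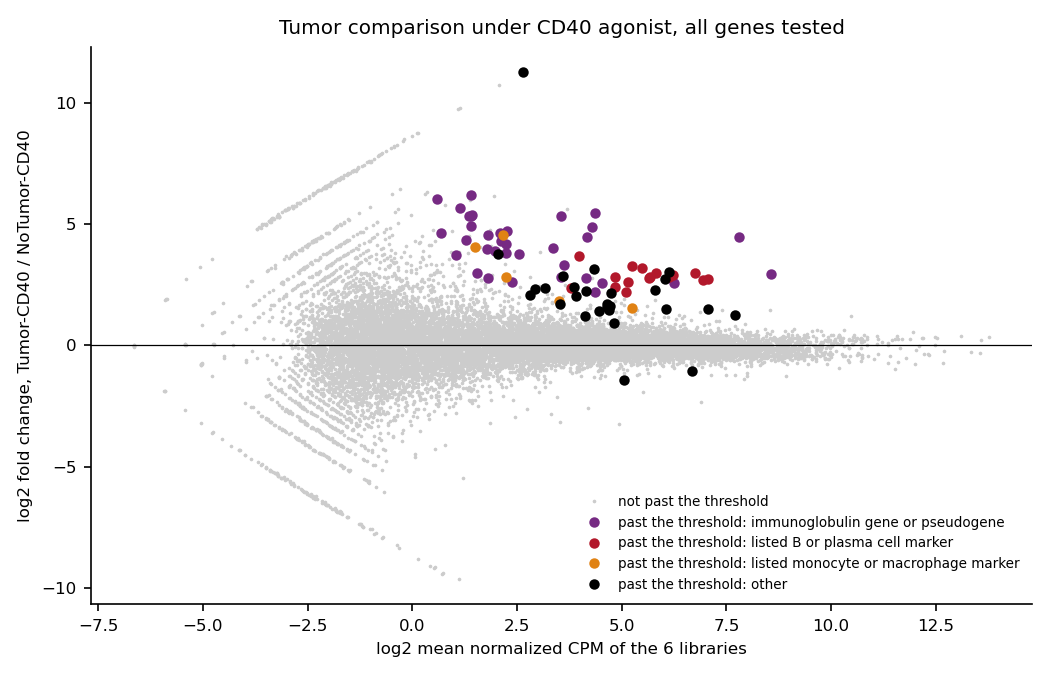
Log2 fold change of Tumor-CD40 over NoTumor-CD40 (vertical axis) against log2 mean normalized CPM of the 6 libraries (horizontal axis) for the 18095 genes tested. Grey points are genes not past the threshold and coloured points are the 83 called genes by kind; 81 of these lie above 0 and 2 below.

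The B cell antigen receptor and its coreceptors were higher in every Tumor-CD40 library than in any NoTumor-CD40 library. Cd79a, which encodes a signaling chain of the receptor, stood at 166, 103 and 295 CPM in Tumor-CD40, against 39.1, 9.70 and 28.9 CPM in NoTumor-CD40. Its log2 fold change was 3.00 ± 0.40 (SE; edgeR adjusted p = 0.00822). The partner chain gene Cd79b stood at 90.4, 76.5 and 203 CPM, against 22.5, 9.31 and 19.7 CPM, a log2 fold change of 2.84 ± 0.31 (edgeR adjusted p = 0.00365). The groups did not overlap for either chain, and Tumor-CD40 library 3 was the highest for both. Cr2, a complement receptor of B cells, was at 42.8, 45.0 and 184 CPM, against 19.0, 5.54 and 10.8 CPM (2.82 ± 0.47, edgeR adjusted p = 0.0239). Cd22, an inhibitory receptor, was at 56.6, 33.7 and 174 CPM, against 15.6, 8.09 and 10.9 CPM (2.77 ± 0.51, edgeR adjusted p = 0.0366). For all of these Tumor-CD40 library 3 was the highest, and even the lowest Tumor-CD40 library stood above every NoTumor-CD40 library. In the fit without the block Cd79b and Cd22 were called (edgeR adjusted p = 0.0423 and 0.0446), and Cd79a and Cr2 were not (0.146 and 0.0641).

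Other surface genes of B cells did the same. Ms4a1, which encodes CD20, stood at 150.4, 120.4 and 363 CPM in Tumor-CD40, against 53.3, 17.1 and 30.0 CPM in NoTumor-CD40 (2.69 ± 0.37, edgeR adjusted p = 0.00822). Fcer2a, which encodes the low-affinity IgE receptor CD23, stood at 138, 177 and 381 CPM, against 47.7, 15.9 and 45.2 CPM (2.75 ± 0.34, edgeR adjusted p = 0.00601). Fcmr, the IgM receptor gene, was at 67.7, 23.1 and 117 CPM, against 11.8, 3.14 and 5.91 CPM (3.28 ± 0.37, edgeR adjusted p = 0.00365). Cxcr5, the chemokine receptor that brings B cells into follicles, was at 34.8, 34.2 and 102 CPM, against 16.5, 4.63 and 15.3 CPM (2.19 ± 0.30, edgeR adjusted p = 0.00822). The adaptor gene Bank1, the kinase gene Blk and the receptor gene Fcrl1 were called as well, with log2 fold changes of 2.84, 2.39 and 2.41. These 3 were also called without the replicate block, where Ms4a1, Fcer2a, Fcmr and Cxcr5 were not (edgeR adjusted p = 0.0518, 0.0628, 0.0592 and 0.0984).

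Genes of the B cell transcription program rose as well. Pax5, the factor that holds B cells to their lineage, stood at 66.2, 82.6 and 246 CPM in Tumor-CD40, against 22.6, 7.19 and 22.6 CPM in NoTumor-CD40 (2.89 ± 0.42, edgeR adjusted p = 0.0117). Pou2af1, which encodes the coactivator OBF-1, stood at 50.6, 40.2 and 93.2 CPM, against 14.1, 6.32 and 9.20 CPM (2.61 ± 0.29, edgeR adjusted p = 0.00365). Pou2f2, which encodes the octamer-binding factor OCT-2 that OBF-1 works with, was at 33.6, 25.6 and 54.1 CPM, against 11.6, 12.4 and 12.5 CPM (1.58 ± 0.24, edgeR adjusted p = 0.0136). Ebf1 was at 12.5, 15.7 and 35.6 CPM, against 6.21, 2.08 and 3.17 CPM, and did not pass (2.51 ± 0.51, edgeR adjusted p = 0.0711), though its groups did not overlap either. With no block Pou2af1 was called (edgeR adjusted p = 0.042), and Pax5 and Pou2f2 were not (0.0595 for both).

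Counted over the list of 18 B cell markers, 15 were called, all higher, and all 18 were above 0 (median 2.76). The 3 not called were Ebf1, the heavy chain gene Ighm (1.47 ± 0.35, edgeR adjusted p = 0.13) and the surrogate light chain gene Vpreb3, which was below 2.11 CPM in all 6 libraries. The median difference of the list was 1.68, 2.83 and 3.40 in pairs 1, 2 and 3. Without the replicate block 8 of the 18 were called with a median of 2.76, and 0 were called without NoTumor-CD40 library 3, where the median was 2.39. Over 27 alternative settings the list median stayed between 2.10 and 3.25. The list's summed expression was 1552, 1344 and 3610 CPM in Tumor-CD40, against 570, 358 and 395 CPM in NoTumor-CD40. Fewer or more cells of a type and less or more RNA per cell cannot be told apart in such bulk libraries. On the length-scaled TPM scale, Cd79a stood at 58.5, 39.0 and 114 TPM in Tumor-CD40, against 13.7, 3.65 and 12.7 TPM in NoTumor-CD40. Xcr1 stood at 40.4, 53.1 and 36.8 TPM in Tumor-CD40, against 39.3, 92.7 and 9.92 TPM in NoTumor-CD40. In the Tumor-CD40 libraries 1 and 3 the level of this B cell gene was thus above that of the cDC1 receptor gene, and in library 2 below it. On the CPM scale it was above only in library 3. Other gene pairs gave other orders. Irf8, at 253, 364 and 316 TPM in Tumor-CD40, was above Cd79a in each library, and Batf3, at 103, 108 and 76.3 TPM, in libraries 1 and 2. Fcer2a (45.3, 71.1 and 144 TPM) was above Xcr1 in each, and Ms4a1 (39.5, 34.7 and 111 TPM) only in library 3. Igkc was above all of these.

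**Figure D2:**
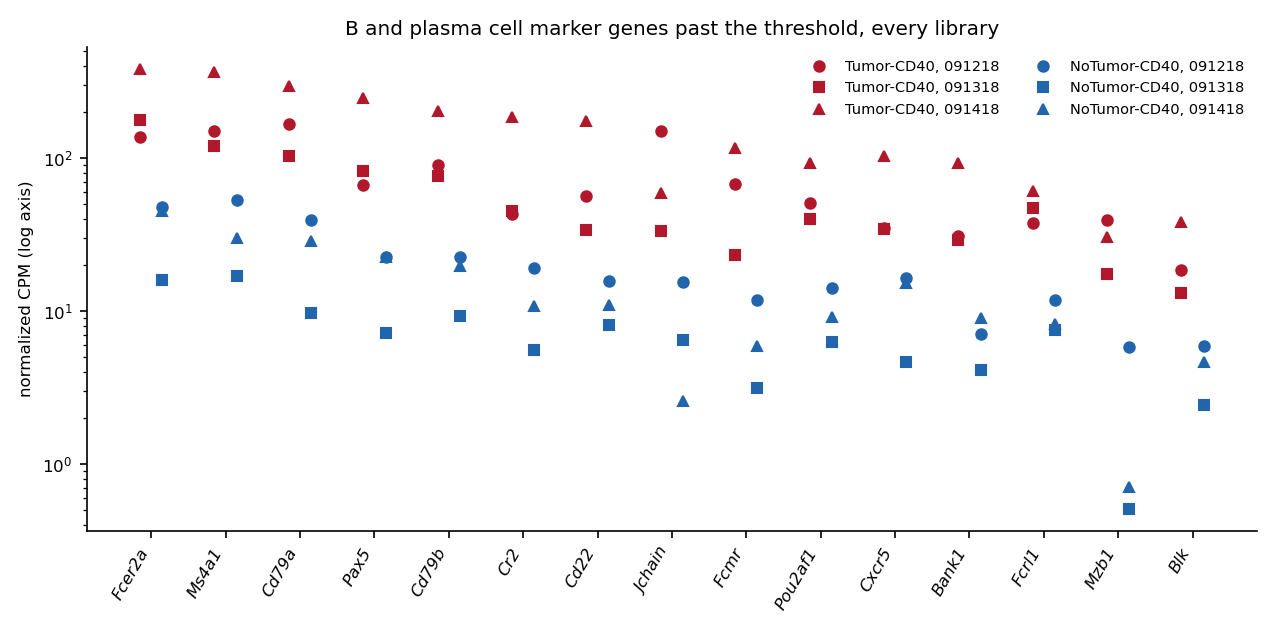
Normalized CPM (log axis) of 15 called B or plasma cell markers that are not immunoglobulin genes, in each of the 6 libraries, ordered by mean level. Red symbols are Tumor-CD40 and blue symbols NoTumor-CD40, with 1 symbol shape per title prefix; for all 15 genes the lowest Tumor-CD40 library lies above the highest NoTumor-CD40 library.

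The promoters of 3 of these genes are shown, each with a match to a short sequence bound by transcription factors. Whether such factors act on these genes here was not tested. RefSeq windows of 300 bases around the start site were at hand for 10 of the 16 called markers that are not immunoglobulin genes. They were searched on both strands for GAGGAA, a core bound by PU.1 and other ETS factors, for the EBF1 palindrome (TCCC and GGGA with 2 free bases between them), and for the octamer ATGCAAAT bound by OCT-2 with OBF-1. The first was in 4 of the 10 (Pou2af1, Fcmr, Cd79a and Fcrl1), against 31.3% of the windows of all 27025 genes, the second in 1 (Cd22), against 1.06%, and the octamer in 0, against 1.97%. A match is a description of these letters and not a bound site. Capitals mark the match in each window of build GRCm38.p6, which is chr7:24897247-24897546 on the plus strand for Cd79a, chr9:51213440-51213739 on the plus strand for Pou2af1 and chr7:30878979-30879278 on the minus strand for Cd22.
Cd79a: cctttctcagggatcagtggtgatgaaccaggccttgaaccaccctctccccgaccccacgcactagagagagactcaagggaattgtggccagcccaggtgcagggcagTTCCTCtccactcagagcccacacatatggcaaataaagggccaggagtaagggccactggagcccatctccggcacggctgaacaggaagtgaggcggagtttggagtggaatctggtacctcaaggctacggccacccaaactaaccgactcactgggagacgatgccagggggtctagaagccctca
Pou2af1: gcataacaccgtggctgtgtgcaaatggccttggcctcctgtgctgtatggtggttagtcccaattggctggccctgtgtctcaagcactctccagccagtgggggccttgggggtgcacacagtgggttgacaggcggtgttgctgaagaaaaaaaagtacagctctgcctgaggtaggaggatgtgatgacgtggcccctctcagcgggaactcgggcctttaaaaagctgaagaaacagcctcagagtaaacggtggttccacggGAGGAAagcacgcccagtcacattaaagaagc
Cd22: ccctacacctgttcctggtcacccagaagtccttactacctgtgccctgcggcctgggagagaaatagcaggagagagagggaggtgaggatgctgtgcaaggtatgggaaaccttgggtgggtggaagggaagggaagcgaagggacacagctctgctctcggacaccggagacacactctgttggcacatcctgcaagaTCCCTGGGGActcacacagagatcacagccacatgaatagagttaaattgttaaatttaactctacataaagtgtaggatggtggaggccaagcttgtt

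The 35 called immunoglobulin genes had a median log2 fold change of 4.29, against 2.83 for the 16 other called B or plasma cell markers. Among the 35, the median was 2.77 for the 7 constant genes and 4.33 for the 20 kappa V segments. Those kappa V segments lay at 0 to 2.51 CPM in NoTumor-CD40, near the floor. The medians therefore do not rank immunoglobulin genes above the other markers. Summed over all immunoglobulin genes, expression was 3200, 1374 and 3126 CPM in Tumor-CD40, against 538.8, 379.9 and 310.4 CPM in NoTumor-CD40. All 3 Tumor-CD40 libraries stood above all NoTumor-CD40 libraries, and these transcripts took 0.137% to 0.32% of the counts in Tumor-CD40, against 0.031% to 0.0539% in NoTumor-CD40. Igkc (chromosome 6), the constant region of the kappa light chain, was at 847, 387 and 779.5 CPM, against 123, 59.0 and 74.3 CPM (2.93 ± 0.33, edgeR adjusted p = 0.00365). Ighd, the constant region of IgD on naive B cells, was at 107, 69.8 and 215 CPM, against 33.1, 15.4 and 16.5 CPM (2.59 ± 0.36, edgeR adjusted p = 0.00861).

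Class-switched constant genes were called too. Ighg1 stood at 857, 159 and 266 CPM in Tumor-CD40, against 16.4, 22.3 and 8.13 CPM in NoTumor-CD40 (4.47 ± 0.76, edgeR adjusted p = 0.0249), and Tumor-CD40 library 1, not 3, was the highest. Ighg2b stood at 18.4, 15.6 and 58.9 CPM, against 5.51, 1.81 and 5.51 CPM (2.77 ± 0.33, edgeR adjusted p = 0.0058). The lambda constant genes Iglc1, Iglc2 and Iglc3 had log2 fold changes of 2.83, 2.56 and 2.21. In all, 7 of the 12 constant genes tested were called, against 0.459% of all genes. So were 20 of 59 kappa, 5 of 30 heavy and 2 of 3 lambda V segments, the gene pieces that encode the antigen-binding part of the chains, and 1 of 8 J segments. When the block was dropped Ighd, Ighg1 and Ighg2b were called, and Igkc, Iglc1, Iglc2 and Iglc3 were not (edgeR adjusted p = 0.0592, 0.0984, 0.293 and 0.279).

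The V segments were low in NoTumor-CD40. Igkv1-135 stood at 88.0, 8.05 and 18.4 CPM in Tumor-CD40, against 2.18, 0.393 and 1.03 CPM in NoTumor-CD40, the lowest adjusted p of all genes (4.91 ± 0.39, edgeR adjusted p = 3.53e-05). Igkv6-23 stood at 87.5, 5.53 and 28.3 CPM, against 1.77, 0.432 and 0.476 CPM (5.46 ± 0.95, edgeR adjusted p = 0.0226). Igkv4-57 stood at 47.4, 3.76 and 53.1 CPM, against 2.51, 0.51 and 1.27 CPM (4.47 ± 0.60, edgeR adjusted p = 0.00601). Among the other segments with large changes were the kappa segments Igkv8-21 (6.19), Igkv9-124 (4.73), Igkv4-72 (4.64) and Igkv3-2 (4.57), the heavy chain segments Ighv1-55 (5.38), Ighv1-81 (5.33) and Ighv5-16 (5.32), and the joining segment Ighj2 (4.94). Without the replicate block Igkv6-23, Ighv1-55, Ighv1-81 and Ighv5-16 were not called (edgeR adjusted p = 0.0691, 0.0708, 0.0667 and 0.101), and the other segments named here were. Different libraries led for different segments: among the 20 called kappa V segments Tumor-CD40 library 1 was the highest for 9, library 2 for 3 and library 3 for 8. Of the 14 called B cell markers that are not immunoglobulin genes, library 3 was the highest for all 14.

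Reads of one V segment can be assigned to a near copy, so the division among segments is less certain than their sum. Of 351 pairs of the 27 called V segments, 13 were at least 90% identical over their aligned transcript bases, with a median identity of 63% over all pairs. The closest pair, Igkv17-121 (chr6:68036812-68037318, plus strand) and Igkv17-127 (chr6:67861153-67861659, plus strand), differed at 9 of 359 aligned bases, an identity of 97.5%. Igkv17-121 stood at 7.88, 4.54 and 5.99 CPM in Tumor-CD40, against 1.19, 0.628 and 0.833 CPM in NoTumor-CD40, and Igkv17-127 at 8.61, 5.74 and 5.15 CPM, against 0.206, 0.432 and 0.555 CPM. The last 150 bases of both transcripts (GENCODE M21, GRCm38) are shown to make the likeness visible, with capitals at the 3 bases that differ.
Igkv17-121: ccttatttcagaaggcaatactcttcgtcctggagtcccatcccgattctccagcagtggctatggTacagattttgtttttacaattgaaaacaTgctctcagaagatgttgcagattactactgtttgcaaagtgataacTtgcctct
Igkv17-127: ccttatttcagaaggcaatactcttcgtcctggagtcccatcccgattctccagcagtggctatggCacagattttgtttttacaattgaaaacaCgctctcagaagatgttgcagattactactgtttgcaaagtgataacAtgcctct

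Genes of antibody secretion formed a smaller set. Of 10 plasma cell markers tested, 4 were called, all higher: Ighg1 and Ighg2b above, and Mzb1 and Jchain. Jchain, the chain that joins IgM and IgA units, stood at 149, 33.4 and 59.1 CPM in Tumor-CD40, against 15.6, 6.44 and 2.58 CPM in NoTumor-CD40 (3.21 ± 0.55, edgeR adjusted p = 0.0263). Mzb1, a chaperone of immunoglobulin assembly, stood at 39.2, 17.6 and 30.6 CPM, against 5.84, 0.51 and 0.714 CPM (3.71 ± 0.51, edgeR adjusted p = 0.00822). The secretory program gene Xbp1 was at 75.9, 77.2 and 68.1 CPM, against 60.7, 63.5 and 44.1 CPM, and the plasma cell surface gene Sdc1 at 7.40, 2.81 and 2.50 CPM, against 3.25, 1.41 and 1.31 CPM. Neither passed (edgeR adjusted p = 0.383 and 0.42). Without NoTumor-CD40 library 3, 0 of the 10 were called, and without the replicate block Jchain was not (edgeR adjusted p = 0.0984).

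Several of the 25 called genes outside these lists are also used by B cells. Ccr6, a chemokine receptor of B cells and some dendritic cells, stood at 18.8, 21.96 and 47.8 CPM in Tumor-CD40, against 6.37, 4.91 and 6.42 CPM in NoTumor-CD40 (2.26 ± 0.29, edgeR adjusted p = 0.00822). Tnfrsf13c, the receptor for the B cell survival factor BAFF, was at 35.6, 24.5 and 70.8 CPM, against 15.5, 4.67 and 9.24 CPM (2.16 ± 0.38, edgeR adjusted p = 0.0292). Tlr7, a receptor for single-stranded RNA, was at 14.5, 10.03 and 20.5 CPM, against 3.74, 2.40 and 2.50 CPM (2.37 ± 0.33, edgeR adjusted p = 0.00822). Gpr183, an oxysterol receptor that guides B cells and dendritic cells in lymphoid tissue, was at 27.2, 26.3 and 42.5 CPM, against 17.6, 9.46 and 9.68 CPM (1.402 ± 0.265, edgeR adjusted p = 0.0459). The Fc receptor-like gene Fcrl5 (2.33) and the lymphocyte surface gene Ly6d (2.75) were called too, and Ly6d was the single called gene of 11 listed plasmacytoid dendritic cell markers. With no block Ccr6 and Tlr7 were called, and Tnfrsf13c, Gpr183, Fcrl5 and Ly6d were not (edgeR adjusted p = 0.0984, 0.0844, 0.0592 and 0.147).

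Other called genes have roles in many cells. Scd1, the desaturase that makes oleic acid, stood at 79.2, 66.0 and 235 CPM in Tumor-CD40, against 20.0, 11.9 and 11.1 CPM in NoTumor-CD40 (3.04 ± 0.49, edgeR adjusted p = 0.0197). Slpi, a secreted protease inhibitor, stood at 48.0, 24.6 and 36.7 CPM, against 6.66, 4.36 and 1.11 CPM (3.16 ± 0.60, edgeR adjusted p = 0.0457). The 2 called genes of 27 in uptake and cross-presentation were Rac2 and Cybb, both parts of the NADPH oxidase. That list had 14 of 27 above 0 and a median of 0.006, and 0.459% of all genes were called. Rac2 stood at 275, 207 and 399.8 CPM, against 128, 100.3 and 131 CPM (1.26 ± 0.17, edgeR adjusted p = 0.00822), and Cybb at 61.4, 60.4 and 152 CPM, against 33.6, 8.72 and 14.8 CPM (2.30 ± 0.38, edgeR adjusted p = 0.0226). Ly6a was the single called gene of 41 in the type I interferon response list, at 199.9, 175 and 212 CPM, against 110.3, 55.6 and 48.7 CPM (1.503 ± 0.246, edgeR adjusted p = 0.0226). Pecam1, an adhesion molecule of endothelium and leukocytes, was the single called gene of 8 endothelial markers tested (1.46). The other called higher genes were Cyp4f18, Bcar3, Slc28a2, Chst10, Ralgps2, Il9r, Acp5, Acap1, Atp2a3, Pkig, Gimap7 and the pseudogene Impdh2-ps, which was at 25.1, 0 and 12.1 CPM in Tumor-CD40 and at 0 in all NoTumor-CD40 libraries. Of the genes in this paragraph Scd1, Rac2, Cyp4f18 and Ralgps2 were also called without the replicate block. There Slpi, Cybb, Ly6a and Pecam1 had edgeR adjusted p of 0.075, 0.0865, 0.0592 and 0.109.

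Both called lower genes were measured well above the filter. Prph, which encodes the intermediate filament peripherin, stood at 17.0, 20.0 and 16.9 CPM in Tumor-CD40, against 36.7, 51.8 and 56.6 CPM in NoTumor-CD40 (-1.42 ± 0.21, edgeR adjusted p = 0.0117). Lad1, which encodes the filament protein ladinin 1, stood at 85.4, 50.7 and 63.7 CPM, against 143, 108 and 164 CPM (-1.06 ± 0.19, edgeR adjusted p = 0.0353). The groups did not overlap for either gene. Without the replicate block Prph was called (edgeR adjusted p = 0.042) and Lad1 was not (0.545). Lower values just outside the threshold included those of Tmem39a (-0.85), Hist1h2bc (-1.01), Tnfaip2 (-1.22), the unclassified transcript Gm48358 (-1.38) and Pim1 (-0.58), with edgeR adjusted p of 0.0542, 0.0623, 0.0646, 0.0816 and 0.0865.

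Markers of macrophages and monocytes were higher in part. Of 13 macrophage markers 2 were called and 11 were above 0 (median 1.71). Among 10 monocyte markers 3 were called and 7 were above 0 (median 0.65), while 0.459% of all genes were called. Csf1r, the receptor for macrophage colony-stimulating factor, stood at 21.3, 9.50 and 22.3 CPM in Tumor-CD40, against 6.78, 4.24 and 3.61 CPM in NoTumor-CD40 (1.84 ± 0.30, edgeR adjusted p = 0.0226). Marco, a scavenger receptor of lymph node macrophages, stood at 4.37, 4.995 and 6.42 CPM, against 0.658, 0.196 and 0.119 CPM (4.06 ± 0.75, edgeR adjusted p = 0.0253). The complement gene C1qb stood at 8.05, 7.39 and 9.12 CPM, against 1.85, 1.14 and 0.515 CPM (2.84 ± 0.50, edgeR adjusted p = 0.0289). The chitinase-like gene Chil3 stood at 0.649, 1.73 and 23.5 CPM, against 0.206, 0.118 and 0.714 CPM, so that Tumor-CD40 library 3 alone was high and the groups overlapped (4.57 ± 0.70, edgeR adjusted p = 0.0137). Ms4a4c, a monocyte membrane gene, was also called (1.54). Without the replicate block 0 monocyte markers were called (edgeR adjusted p = 0.134 for Csf1r, 0.0585 for Chil3 and 0.148 for Ms4a4c) while Marco and C1qb were, and with legacy = TRUE in glmQLFit 0 markers of either list were. The summed macrophage list did not separate the groups, at 224 to 261 CPM in Tumor-CD40 against 136 to 266 CPM in NoTumor-CD40, and neither did that of neutrophil markers (4.38 to 28.9 against 2.40 to 34.3 CPM). The summed monocyte list did, at 679 to 711 CPM in Tumor-CD40 against 232 to 541 CPM in NoTumor-CD40.

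**Figure D3:**
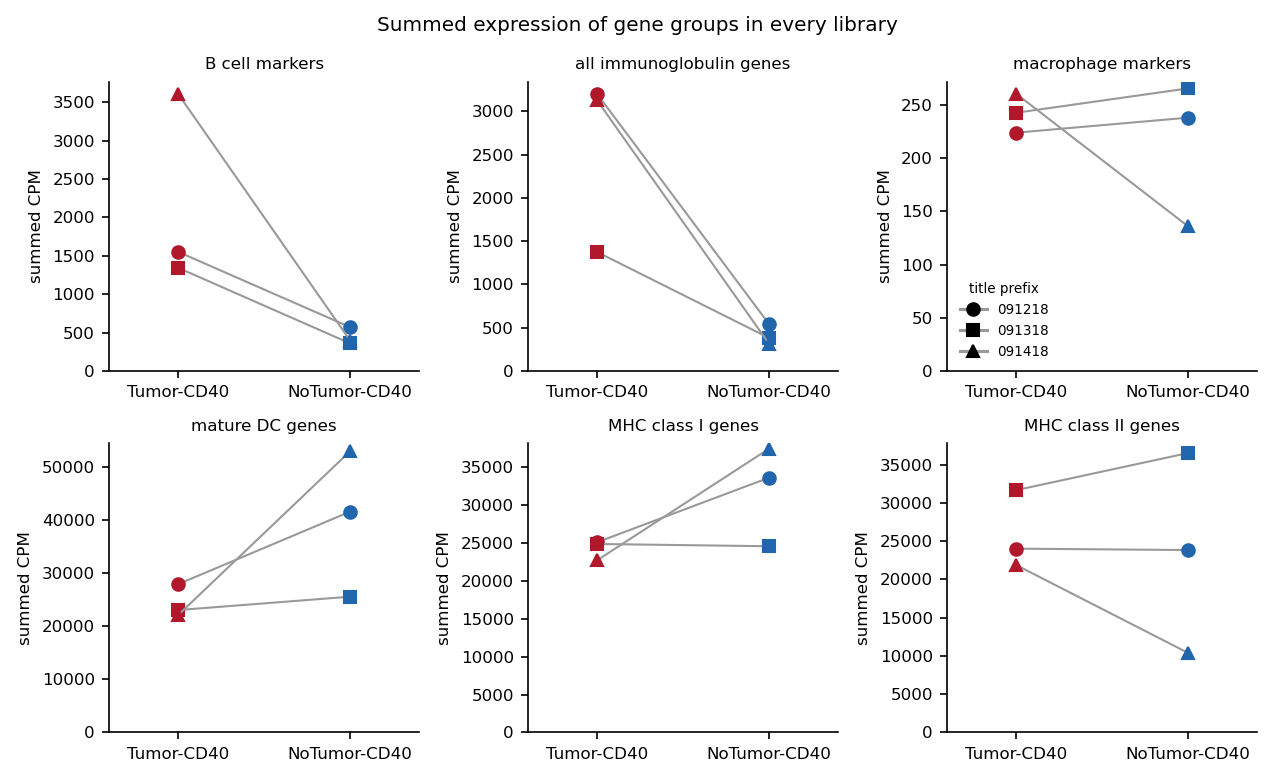
Summed normalized CPM of 5 gene lists and of all immunoglobulin genes in each library, with Tumor-CD40 left of NoTumor-CD40 and lines joining libraries of the same title prefix. B cell and immunoglobulin sums are higher in all 3 Tumor-CD40 libraries, the mature dendritic cell sum is lower in each pair by amounts that differ between pairs, and the macrophage and MHC class II sums go in different directions between pairs.

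T cell, NK cell, cDC2 and epithelial markers gave no calls, and Ly6d and Pecam1 above were the calls among plasmacytoid dendritic cell and endothelial markers. All 17 T cell markers were above 0 (median 0.52) and 0 were called; their sum was 334 to 808 CPM in Tumor-CD40, against 364 to 503 CPM in NoTumor-CD40. All 10 NK cell markers were above 0 (median 0.95) and 0 were called, with sums of 116 to 151 against 80.4 to 109 CPM. Of 12 cDC2 markers 10 were above 0 (median 0.50) and 0 were called, with sums of 487 to 582 against 511 to 848 CPM. Of 7 epithelial or KPC tumor markers tested 1 was above 0 and 0 were called, with sums of 12.5 to 17.6 against 16.7 to 22.3 CPM, and the pancreatic markers Pdx1 and Msln were at 0 in all 6 libraries. Erythroid markers summed to 71.7 CPM in Tumor-CD40 library 3, to 2.42 and 4.79 CPM in Tumor-CD40 libraries 1 and 2, and to 2.14 to 8.92 CPM in NoTumor-CD40. The part of any of these cells, or of B cells, in the results was not tested.

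Genes of dendritic cell activation lay mostly below 0, and none of them passed the threshold. Of 37 genes of mature and migratory dendritic cells 0 were called, 35 were below 0 and the median was -0.50. In the lower direction 9 of the 37 did not overlap, against 6.2% of all genes. The pairs did not move alike: the median difference was -0.53, -0.09 and -1.08 in pairs 1, 2 and 3. Fscn1, the actin bundler of mature dendritic cells, stood at 5125, 4304 and 4375 CPM in Tumor-CD40, against 8102, 4961 and 12410 CPM in NoTumor-CD40 (-0.73 ± 0.26, edgeR adjusted p = 0.32). Ccr7 stood at 1416, 1642 and 1479 CPM, against 2053, 1368 and 3251 CPM (-0.42 ± 0.26, edgeR adjusted p = 0.554), and in pair 2 it was the Tumor-CD40 library that was higher. Icosl, the ligand of the T cell receptor ICOS, stood at 433, 347 and 292 CPM, against 654, 479 and 776 CPM (-0.78 ± 0.24, edgeR adjusted p = 0.251), with no overlap. Without Tumor-CD40 library 2, 14 of the 37 were called and the median was -0.88. Leaving out Tumor-CD40 library 3 gave 0 calls and a median of -0.216. Leaving out NoTumor-CD40 library 3 gave 0 calls and a median of -0.403.

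Ligands through which dendritic cells signal to T cells had no calls either. Of 15 costimulatory genes tested 0 were called and 5 were above 0, with a median of -0.39. Cd40 itself stood at 296, 261 and 200.2 CPM in Tumor-CD40, against 479, 280.1 and 489.7 CPM in NoTumor-CD40 (-0.67 ± 0.22, edgeR adjusted p = 0.298). Cd86 stood at 331, 327 and 243 CPM, against 428, 347 and 378 CPM (-0.39 ± 0.22, edgeR adjusted p = 0.5), and Cd70 at 14.5, 10.5 and 13.8 CPM, against 26.3, 10.9 and 38.1 CPM (-0.87 ± 0.27, edgeR adjusted p = 0.266). Cd80 was at -0.30 ± 0.24 (edgeR adjusted p = 0.653). Of 19 coinhibitory genes tested 0 were called and 11 were above 0 (median 0.11). Cd274, which encodes the checkpoint ligand PD-L1, stood at 186, 243 and 199 CPM, against 268, 145 and 347 CPM (-0.18 ± 0.25, edgeR adjusted p = 0.798), so the groups overlapped and the pairs disagreed. Of 17 cytokine genes tested 0 were called (median -0.35); Il27, the p28 subunit of interleukin 27, stood at 11.7, 9.50 and 6.14 CPM, against 19.9, 12.9 and 37.0 CPM (-1.27 ± 0.40, edgeR adjusted p = 0.266).

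Antigen presentation genes lay on different sides of 0 by class, with no calls. All 22 MHC class I pathway genes were below 0 (median -0.33) and 0 were called. Of the 22, 7 did not overlap between the groups, against 6.2% of all genes with Tumor-CD40 lower. H2-D1, a class I heavy chain gene with near copies that may share its reads, stood at 4387, 4616 and 4174 CPM in Tumor-CD40, against 5975, 4801 and 6933 CPM in NoTumor-CD40 (-0.40 ± 0.15, edgeR adjusted p = 0.355), and Psme2, a proteasome activator subunit gene, at 809.6, 742 and 646 CPM, against 1194, 818 and 1323 CPM (-0.56 ± 0.19, edgeR adjusted p = 0.298). The median difference was -0.40, -0.01 and -0.74 in pairs 1, 2 and 3. Without Tumor-CD40 library 2, 8 of the 22 were called with a median of -0.52. Leaving out Tumor-CD40 library 3 gave 0 calls among the 22 and a median of -0.155. Leaving out NoTumor-CD40 library 3 gave 0 calls and a median of -0.266. Of 14 MHC class II genes 12 were above 0 (median 0.46) and 0 were called, but the median difference was 0.04, -0.20 and 1.36 by pair. The list median turned to -0.09 without Tumor-CD40 library 3 and was 0.13 without the replicate block. H2-DMb2, a peptide-loading chain gene, stood at 187, 239.9 and 288 CPM, against 117, 123 and 51.2 CPM (1.45 ± 0.35, edgeR adjusted p = 0.133), with no overlap. B cells also express class II genes, and the part of the B cell transcripts in this was not tested.

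Signaling, interferon and growth lists had few or no calls. Of 30 NF-kB and CD40 signaling genes 0 were called and 3 were above 0 (median -0.28; by pair -0.31, -0.002 and -0.73). Of 41 type I interferon genes 1 was called, Ly6a, with a median of -0.03 that turned to 0.01 without the replicate block. In this list 19 were above 0. Groups did not overlap for 5 members higher and 3 lower, against 6.68% and 6.2% of all genes. Oas3, an antiviral oligoadenylate synthetase gene, stood at 65.8, 59.2 and 54.3 CPM in Tumor-CD40, against 113, 82.7 and 108 CPM in NoTumor-CD40 (-0.75 ± 0.18, edgeR adjusted p = 0.13), with no overlap. Isg15 was at 86.5, 75.1 and 76.2 CPM, against 141, 70.0 and 131 CPM (-0.50 ± 0.21, edgeR adjusted p = 0.387). Of 29 interferon gamma response genes tested 0 were called (median -0.22). Of 34 cell cycle genes 33 were above 0 (median 0.52) and 0 were called. In the higher direction 4 of the 34 cell cycle genes did not overlap, against 6.68% of all genes. Their median difference was 0.46, -0.12 and 1.15 in pairs 1, 2 and 3, and the list median was 0.24 without NoTumor-CD40 library 3. Ccna2, the S and G2 phase cyclin gene, stood at 49.9, 34.97 and 40.4 CPM, against 25.4, 33.6 and 15.7 CPM (0.78 ± 0.26, edgeR adjusted p = 0.298). Antiapoptotic genes had 0 calls among 11, with 2 above 0 and a median of -0.315. Bcl2, the highest of the 11, stood at 20.0, 20.2 and 36.0 CPM, against 11.2, 13.9 and 10.2 CPM (1.10 ± 0.28, edgeR adjusted p = 0.162). Mcl1 went the other way, at 499.6, 492.3 and 511.2 CPM, against 640.2, 559.3 and 718.3 CPM (-0.342 ± 0.118, edgeR adjusted p = 0.31).

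**Figure D4:**
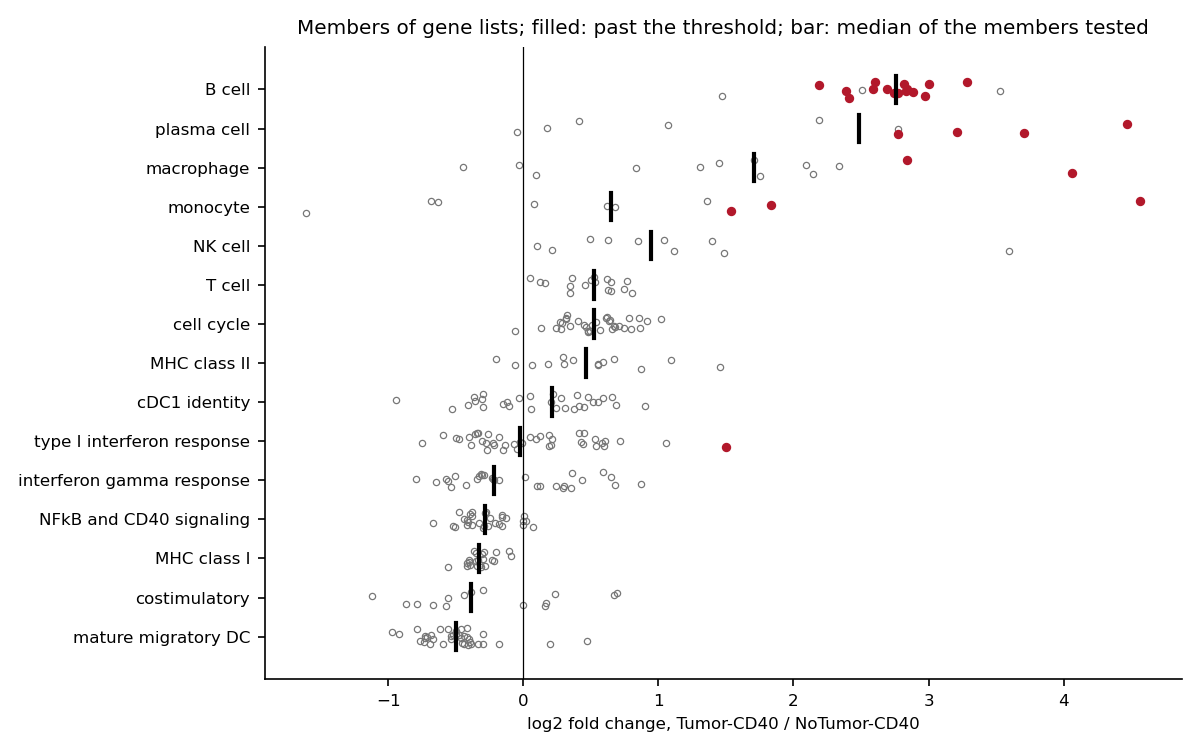
Log2 fold change of Tumor-CD40 over NoTumor-CD40 for each tested member of 15 gene lists. Filled red points are called genes, open points are not, and bars are list medians; 15 of the 18 B cell markers are called, while the mature dendritic cell and MHC class I members lie mostly below 0 with 0 called.

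The tumor comparison without the agonist uses other libraries, 3 of Tumor-NoCD40 and 3 of NoTumor-NoCD40, and was fitted in the same model. NoTumor-NoCD40 library 3 is the only library of its prefix and is fitted exactly there, so with the block this comparison rests on NoTumor-NoCD40 libraries 1 and 2. There edgeR called 0 genes (0%), 696 had an unadjusted p under 0.05, and DESeq2 called 102. Of the 81 genes called higher under the agonist, 57 (70.4%) were above 0 there, against 51% of all genes, and their median was 0.32, while it was 2.85 under the agonist. The interaction, which tests whether the tumor difference itself changes with the agonist, called 0 genes (0%; lowest edgeR adjusted p = 0.616), with 1437 at an unadjusted p under 0.05, and DESeq2 called 133. A difference between the 2 tumor comparisons was thus not shown by edgeR for any gene.

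For the 14 called B cell markers that are not immunoglobulin genes the log2 fold change there had a median of 0.29. Fcer2a stood at 12.1, 4.03 and 9.99 CPM in Tumor-NoCD40, against 12.2, 3.22 and 2.42 CPM in NoTumor-NoCD40 (-0.09). Ms4a1 stood at 21.6, 10.9 and 9.26 CPM, against 19.1, 8.29 and 7.09 CPM (-0.07). These are the lowest of the 14, and Cxcr5 (1.399 ± 0.583, SE), Pou2af1 (0.83 ± 0.44) and Cd79a (0.74 ± 0.53) are the highest. Of the plasma cell markers, whose list median was 0.58 there, Ighg2b was at -0.03 and others had high values. Jchain stood at 25.1, 10.6 and 61.8 CPM in Tumor-NoCD40, against 4.55, 2.23 and 6.89 CPM in NoTumor-NoCD40 (3.20 ± 0.81, SE), and Ighg1 at 57.6, 27.1 and 235 CPM, against 14.7, 6.48 and 3.32 CPM (3.04 ± 0.96). Mzb1 was at 2.86 there and the protease inhibitor gene Slpi at 3.62. None of these passed the adjusted threshold without agonist, where the lowest edgeR adjusted p of any gene was 0.164. Summed over all immunoglobulin genes the level was 664, 419 and 934 CPM in Tumor-NoCD40, against 399, 319 and 324 CPM in NoTumor-NoCD40. The B cell list summed to 459, 383 and 246 CPM in Tumor-NoCD40, against 397, 333 and 299.6 CPM in NoTumor-NoCD40, so these groups overlapped.

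**Figure D5:**
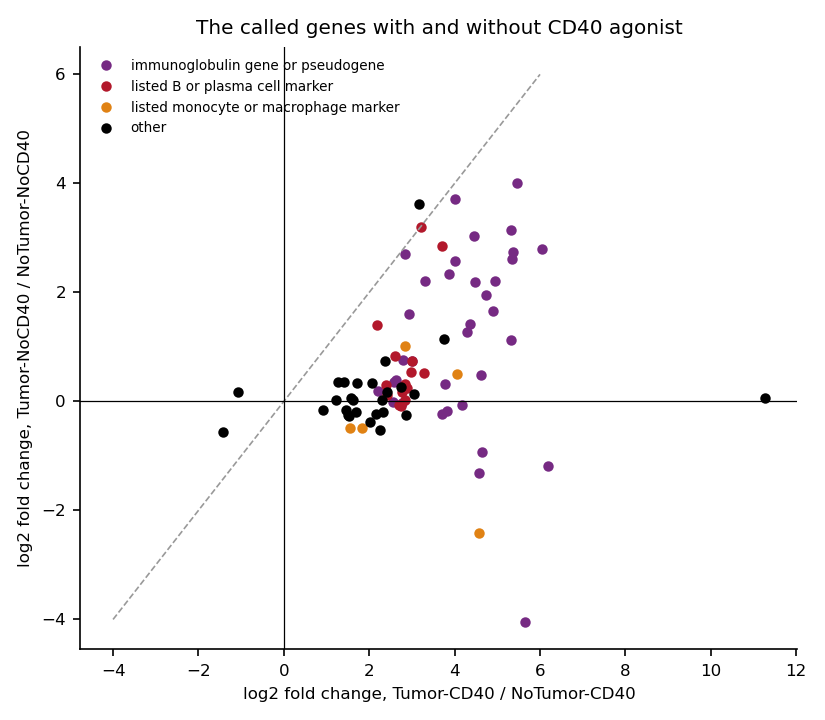
The 83 called genes by their log2 fold change with the tumor under CD40 agonist (horizontal axis, Tumor-CD40 over NoTumor-CD40) and without it (vertical axis, Tumor-NoCD40 over NoTumor-NoCD40), coloured by kind; the dashed line marks equal values. The genes were chosen by the horizontal value; the 14 called B cell markers that are not immunoglobulin genes have a median of 0.29 and a range of -0.089 to 1.399 on the vertical axis, and the 35 immunoglobulin genes a median of 1.27.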

How the data were processed

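Per the labels' protocols, RNA came from the Qiagen RNeasy Plus Micro kit and strand-specific libraries from NEBNext Ultra II Directional reagents. Salmon and the mm10 build were used, per the submitters' processing notes; version and annotation are not given in the sources used here. The authors deposited expected counts per transcript, without normalization, and TPM per transcript, scaled by length and to a common total. Their 136288 transcripts were assigned with GENCODE M21 (GRCm38): 136176 to 53458 genes, and 112, holding 0.0279% to 0.0457% of the counts of a library, to none. Values were summed per gene and expected counts rounded.

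Tests ran in R 4.3.3 with edgeR 4.0.16: TMM (factors 0.936 to 1.074), filterByExpr (minimum count 10, minimum total 15), a model of the 4 groups and the title prefix over all 12 libraries with 5 residual degrees of freedom, glmQLFit with legacy = FALSE, two-sided quasi-likelihood tests and Benjamini-Hochberg adjustment over all genes tested. 1 NoTumor-NoCD40 library has a prefix of its own and is fitted exactly. SE is log2 fold change, unsigned, divided by the root of F. Alternatives used DESeq2 1.42.0 and limma 3.58.1, and left out libraries. On 1 simulated data set with known changes the blocked fit made more false calls than its nominal rate, and the fit without the block did not.

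The prefix was taken to pair libraries because the groups' titles share it; the labels do not say what it marks. Over 10222 genes of at least 5 CPM, deviations from group means correlated at 0.16, 0.112 and 0.044 within prefixes and from -0.106 to -0.008 between them. Deviations within a group sum to 0 for each gene, so the values between prefixes are tied to those within and add no separate evidence. The values within prefixes are low, so results without the block stand beside the counts.

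Called genes were named by size of change at 5 CPM or more with the same sign in all 3 pairs, up to 4 called members of each list by p (or the lowest p and highest level as values), and a fixed panel. The other called genes, the alternatives without the block that leave out a library and some examples were chosen after their values were seen. The members and the 40 gene lists were chosen with earlier results of these data known, so no list is independent evidence. Sequences are from RefSeq (GRCm38.p6) and GENCODE M21, aligned with Biopython 1.88. Intervals cover spread between libraries only. Some called genes are counted and not named.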

Additional observations from a re-analysis of the deposited data

How the results depend on the processing

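Against the 83 genes called (81 higher, 2 lower), the count under other settings was 36 with no replicate block (35 higher, 1 lower), 21 with legacy = TRUE and the block (20, 1), 0 with legacy = TRUE and no block (0, 0), 334 with DESeq2 (240, 94), 50 with limma-voom (46, 4), 7 with limma-trend on log2(TPM + 1) (6, 1), 5 on log2(TPM + 0.1) (5, 0), 26 with the 6 libraries alone and the block (26, 0) and 12 without it (11, 1). It was 109 with no filter (103, 6), 84 with DESeq2 size factors in edgeR and 87 at a mean of at least 1 CPM. Leaving out both libraries of prefix 091218, 091318 or 091418 gave 32 (31, 1), 23 (21, 2) and 33 (32, 1). Leaving out 1 library at a time gave 1 to 442 with the block (1 to 209 higher, 0 to 233 lower). The share of higher calls was 97.6% in the reported result, 71.9% with DESeq2, 85.7% on log2(TPM + 1) and 47.3% without Tumor-CD40 library 2. With no replicate block and 1 library left out, it was 7 (6, 1), 0 and 0 without NoTumor-CD40 library 1, 2 and 3, and 20 (20, 0), 67 (66, 1) and 6 (6, 0) without Tumor-CD40 library 1, 2 and 3. For the tumor without agonist, DESeq2 called 102 genes in place of 0 and leaving out Tumor-CD40 library 3 gave 1 (0 to 1 over such omissions); for the interaction, DESeq2 called 133, log2(TPM + 1) 1, and omissions 0 to 1. The settings that join no block with legacy = TRUE or with an omission were chosen after seeing the data. The cause of these shifts was not tested.

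Of single named genes over all settings, 1877 values kept direction and side of the threshold, 1116 kept direction but no longer passed, 42 newly passed and 15 changed sign. The sign changes are those of Cd274 and Xcr1, neither of which was called. Cd274 (-0.18) was at 0.017, 0.097 and 0.052 without Tumor-CD40 library 1, NoTumor-CD40 library 3 and Tumor-CD40 library 3, at 0.165 without prefix 091418, and between -0.598 and 0.097 over single omissions; it was at 0.018 with no block and no NoTumor-CD40 library 3. Xcr1 (0.45) was at -0.149 with no replicate block under both legacy settings, -0.133 with the 6 libraries and no block, -0.029 without NoTumor-CD40 library 3, -0.333 without Tumor-CD40 library 3 (up to 0.966, without Tumor-CD40 library 2) and -0.375 without prefix 091418. With no block it was at -0.205, -0.146, -0.309 and -0.645 without NoTumor-CD40 library 1, Tumor-CD40 library 1, Tumor-CD40 library 2 and NoTumor-CD40 library 3. The 3 libraries a group and 5 residual degrees of freedom limit what the tests can show.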

Other observations

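Some genes outside the lists above differed in size without passing the threshold. Aldh1a2, the enzyme with which dendritic cells make retinoic acid, stood at 11.5, 16.5 and 12.3 CPM in Tumor-CD40, against 5.47, 6.52 and 2.50 CPM in NoTumor-CD40 (1.51 ± 0.32, edgeR adjusted p = 0.0831), and at 35.3, 30.9 and 18.5 CPM in Tumor-NoCD40, against 6.89, 4.26 and 2.87 CPM in NoTumor-NoCD40 (2.52). The groups did not overlap in either setting. Dusp1, a phosphatase induced by stress and glucocorticoids, stood at 215, 199 and 273 CPM in Tumor-CD40, against 388, 435 and 379 CPM in NoTumor-CD40 (-0.80 ± 0.19, edgeR adjusted p = 0.114). Cd207, which encodes langerin of Langerhans cells and some cDC1, stood at 5.32, 3.14 and 3.85 CPM, against 14.97, 77.4 and 4.40 CPM, so that NoTumor-CD40 library 2 stood apart and NoTumor-CD40 library 3 was close to Tumor-CD40 (-2.57 ± 0.58, edgeR adjusted p = 0.103).

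Metabolic and stress lists had 0 called members in edgeR. Their medians were 0.14 for 22 glycolysis genes, -0.02 for 36 oxidative phosphorylation genes, -0.06 for 23 cholesterol synthesis genes, -0.04 for 17 hypoxia genes, 0.08 for 20 unfolded protein response genes, -0.21 for 19 immediate early genes and -0.31 for 11 glucocorticoid response genes. The median over all genes was 0. Of the 40 lists, 32 had no called member and 8 had at least 1.

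At 1 locus the identifiers of a single gene differed in opposite directions. The locus was chosen after its values were seen. Nnt, the mitochondrial transhydrogenase gene on chromosome 13 (119335448 to 119408997, minus strand), is annotated as 2 overlapping identifiers. ENSMUSG00000116207 stood at 0.563, 1.61 and 0 CPM in Tumor-CD40, against 8.51, 6.87 and 4.203 CPM in NoTumor-CD40 (-3.21, edgeR adjusted p = 0.0607). ENSMUSG00000025453 stood at 10.6, 7.02 and 10.3 CPM, against 0.987, 5.497 and 0.595 CPM (1.98, edgeR adjusted p = 0.313). Their sum was 11.2, 8.63 and 10.3 CPM in Tumor-CD40, against 9.5, 12.4 and 4.8 CPM in NoTumor-CD40, where the groups overlap. How reads were divided between the identifiers was not tested.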
